A study of Mus musculus with 6 samples.

Results

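The exosome, the SKI complex and the XRN exonucleases are the machines that degrade RNA from its ends once it has been selected for decay. Their messenger RNAs were followed here through 10 listed genes, the exonuclease genes Xrn1, Xrn2, Dis3, Dis3l and Exosc10, the exosome core genes Exosc3 and Exosc9 and the SKI genes Skiv2l, Ttc37 and Wdr61. The genes were chosen by name from the 55487 genes of the count table, all 10 were found, and all 10 were among the 15748 genes with enough reads to be tested.

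After removal of the cap by decapping enzymes, XRN1 digests the body of a cytoplasmic mRNA from its 5' end, whereas XRN2 works in the nucleus, where it also takes part in transcription termination and RNA processing. The exosome works in the opposite direction. It is a barrel of core subunits without catalytic activity in mammals that passes RNA to attached nucleases, DIS3 and EXOSC10 mainly in the nucleus and DIS3L in the cytoplasm, and in the cytoplasm the SKI helicase complex feeds it. DDX6, the protein targeted in this study, is an RNA helicase that promotes decapping and so acts just upstream of XRN1.

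PolyA RNA was sequenced from the mouse line D6AdP, which consists of embryonic stem (ES) cells. In every group both copies of Ddx6 carried an auxin-inducible degron with mCherry, 1 copy of Dcp1a carried EGFP, and a transgene supplied FLAG-tagged OsTIR1, the plant F-box protein that marks degron proteins for the proteasome when an auxin is present. The cells grew with leukemia inhibiting factor, PD0325901 (a MEK inhibitor) and CHIR99021 (a GSK3 inhibitor) on fibroblast feeder cells treated with mitomycin C. The groups were cells before treatment (0 h) and cells kept for 3 h or 6 h with 500 nM of the auxin analog 5-Ph-IAA, with 2 libraries each. No library used here came from untreated cells kept for 3 or 6 h or from treated cells without the degron, so the analog, handling, hours in culture and loss of DDX6 cannot be told apart.

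The libraries held 16357142 to 21846959 counts, and the 10 genes had between 357 counts (Dis3l) and 5071 counts (Xrn2) in a single library. Values are library-scaled counts (CPM) after TMM scaling unless stated. All 12 ES cell markers examined were detected, with Pou5f1 between 609 and 658 CPM in the libraries. The 24 feeder fibroblast markers summed to 25086 and 27476 CPM before treatment, 23824 and 24301 after 3 h and 24265 and 27084 after 6 h, and none of them was at 0. These are bulk samples, so a change in the share of a cell type and a change in RNA per cell cannot be told apart, and feeder transcripts of the 10 genes are counted together with those of the ES cells. The mRNA of Ddx6 itself measured 267 and 249.9 CPM before treatment, 269 and 271 after 3 h and 258 and 247 after 6 h. It was not called changed after 3 h (edgeR adjusted p = 0.602) or after 6 h (adjusted p = 0.581), and since the degron acts on the protein these values do not check the depletion.

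Of the 10 genes 1 was called changed against 0 h. It was the least abundant, Dis3l, the nuclease gene of the cytoplasmic exosome, which rose after 6 h by 1.30-fold. For the other 9 the fitted changes against 0 h ran from -5.29% to 5.92% after 3 h and from -7.29% to 5.78% after 6 h, and none passed the test. Of all genes tested, 22.3% were called after 6 h, at an adjusted p under 0.05 from edgeR's quasi-likelihood test. No gene of the 10 was called after 3 h, when 0.14% of all genes were.

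The levels were first compared per length of exon, as CPM divided by kilobases of exon (RPKM) over the union of annotated exons. At 0 h Xrn2 was the highest at 58.7 ± 0.518 RPKM (SD, n = 2), above 95.5% of the genes tested. It was followed by Exosc10 at 31.1 ± 0.110, Exosc3 at 24.2 ± 0.521 and Dis3 at 19.4 ± 0.259. A middle group held Skiv2l at 15.4 ± 0.432, Exosc9 at 15.4 ± 0.0554 and Wdr61 at 12.7 ± 0.0857. Ttc37 at 6.52 ± 0.133, Xrn1 at 5.64 ± 0.0490 and Dis3l at 3.36 ± 0.0491 RPKM closed the order. Dis3l lay above 44.4% of the genes tested and all the others above 55.3% or more. In this order only the neighbours Skiv2l and Exosc9 overlapped between libraries at 0 h. No neighbours overlapped at 3 or 6 h, and the order was the same at all 3 times. It depends on the length used. With the length of the transcript that has the longest coding sequence, Xrn2 stayed first at 68.0 RPKM and Dis3l last at 5.12 RPKM at 0 h, but Wdr61 moved from the 7th to the 2nd place (46.1 RPKM) and Exosc9 from the 6th to the 3rd (44.9 RPKM).

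**Figure D1:**
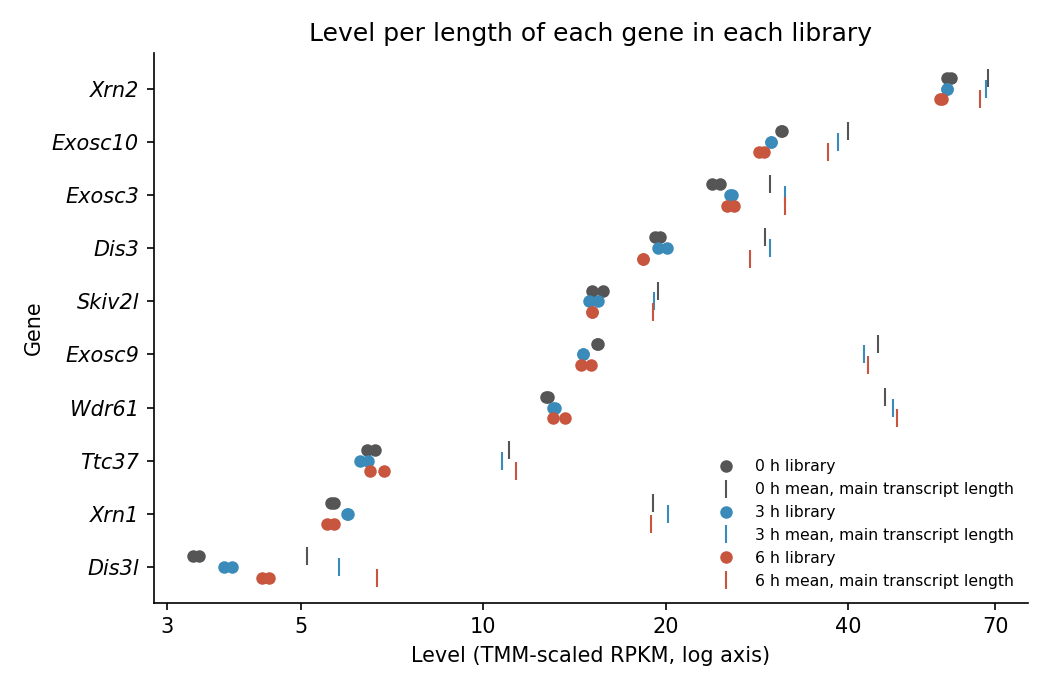
Level of each gene per length on a log axis. Points are the 6 libraries by time with analog, scaled by the union of exons, and ticks are the group means scaled by the length of the main transcript. Xrn2, near 58 RPKM by the union of exons, is the highest and Dis3l the lowest on both scales.

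The genes of the exonucleases that work from the 5' end did not pass the test. Xrn1 (ENSMUSG00000032410, chromosome 9 from 95954760 to 96057803, plus strand, GRCm38) measured 104 and 105 CPM before treatment, 111 and 111 after 3 h and 103 and 105 after 6 h. Both 3 h libraries were above all others, and the 0 h and 6 h libraries overlapped. Its log2 fold change was 0.08 ± 0.04 (SE) after 3 h (edgeR adjusted p = 0.474) and -0.01 ± 0.04 after 6 h (adjusted p = 0.887). The 95% interval after 6 h ran from -0.10 to 0.07, which limits any fall in Xrn1 mRNA at that time to 0.10 on the log2 scale under this model.

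Xrn2 (ENSMUSG00000027433, chromosome 2 from 147012996 to 147078000, plus strand) measured 232 and 235 CPM before treatment, 232 and 232 after 3 h and 226 and 228 after 6 h. Every 6 h library was below every other library, by a small margin. The log2 fold change was -0.01 ± 0.03 after 3 h (edgeR adjusted p = 0.942) and -0.04 ± 0.03 after 6 h (adjusted p = 0.407). Per length, mean Xrn2 mRNA exceeded mean Xrn1 mRNA by 10.4 to 1 before treatment, 9.75 to 1 after 3 h and 10.2 to 1 after 6 h, a ratio that rests on the long exon union of Xrn1, which is 18585 nt against a main transcript of 5499 nt. By the length of the main transcripts it was 3.57, 3.34 and 3.49 to 1.

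Of the exosome nuclease genes, Dis3l rose while Dis3 and Exosc10 did not pass the test against 0 h. Dis3l (ENSMUSG00000032396, chromosome 9 from 64306756 to 64341288, minus strand) measured 18.5 and 18.1 CPM before treatment, 20.3 and 21 after 3 h and 24.2 and 23.5 after 6 h. The 3 groups did not overlap, with both 3 h libraries between those of 0 h and 6 h. Such a strict upward order of all libraries was found for 5.12% of the genes tested, and Dis3l was the 1 gene of the 10 that had it. The log2 fold change was 0.17 ± 0.07 after 3 h, which did not pass (edgeR adjusted p = 0.373), and 0.38 ± 0.07 after 6 h (adjusted p = 0.000916, 95% interval 0.23 to 0.53). The rise after 6 h was called in all 16 alternative analyses, DESeq2 (adjusted p = 0.0154) and each fit without a library included, with log2 fold changes from 0.37 to 0.42 and adjusted p from 5.63e-05 to 0.0154. With the feeder marker level as a covariate it was 0.38 (adjusted p = 5.63e-05). That covariate, the mean log2 CPM of the feeder markers, was 8.64 and 8.53 at 0 h and 8.65 and 8.53 after 6 h. It was thus nearly equal in the 2 groups and could hardly move this estimate. Of the 24 feeder markers 2 were higher and none lower in the same comparison (median -0.01). Of the 12 ES cell markers 3 were higher and 6 lower (median -0.11), their summed level being 6094 to 6275 CPM before treatment and 5598 to 5739 CPM after 6 h, and their part in the change of Dis3l was not tested.

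Dis3 (ENSMUSG00000033166, chromosome 14 from 99075206 to 99099770, minus strand) measured 149 and 152 CPM before treatment, 151 and 156 after 3 h and 142 and 142 after 6 h. Both 6 h libraries were below the other 4. Against 0 h its log2 fold change was 0.03 ± 0.04 after 3 h (edgeR adjusted p = 0.850) and -0.08 ± 0.04 after 6 h (adjusted p = 0.132). The level of Dis3 relative to Dis3l, per length, was 5.67 and 5.90 in the 0 h libraries, 5.22 and 5.22 after 3 h, and 4.13 and 4.26 after 6 h. The groups did not overlap in this ratio, but 2 libraries against 2 cannot give an exact two-sided permutation p below 0.333. The third nuclease of this family, Dis3l2, degrades uridylated RNA without the exosome and was named after its values were seen. It measured 27.2 and 26.9 CPM at 0 h, 28.4 and 30.0 after 3 h and 24.8 and 27.2 after 6 h. The 0 h and 6 h groups overlapped, with a log2 fold change after 6 h of -0.05 ± 0.07 (edgeR adjusted p = 0.617). Both 3 h libraries were above all others, with log2 fold changes of 0.11 ± 0.07 from 0 h to 3 h (adjusted p = 0.576) and -0.17 ± 0.07 from 3 h to 6 h (adjusted p = 0.0864).

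**Figure D2:**
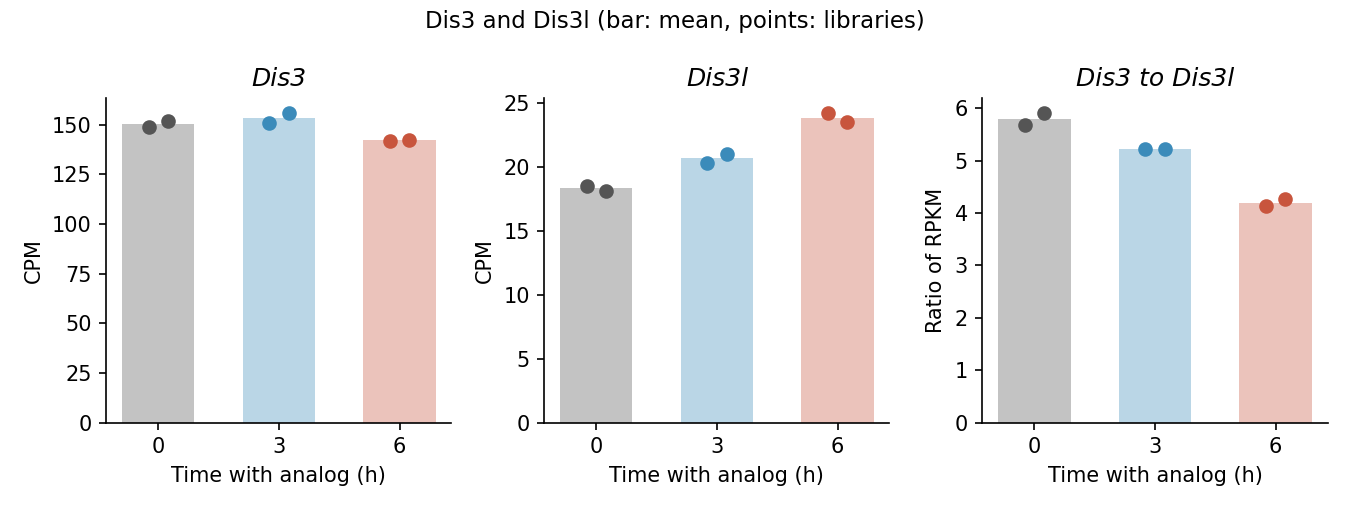
CPM of Dis3 and of Dis3l and the ratio of their RPKM by time with analog. Bars are group means and points the 2 libraries. The Dis3l libraries go from 18.1 and 18.5 CPM at 0 h to 23.5 and 24.2 CPM after 6 h, and the ratio from a mean of 5.78 to 4.2.

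Exosc10 (ENSMUSG00000017264, chromosome 4 from 148558429 to 148582401, plus strand), the nuclear exonuclease attached to the top of the barrel, measured 112 and 111 CPM before treatment, 107 and 107 after 3 h and 102 and 105 after 6 h. The libraries were in strict downward order over the 3 times, as were those of Xrn2 and of 5.43% of the genes tested. The log2 fold change of Exosc10 was -0.06 ± 0.04 after 3 h (edgeR adjusted p = 0.646) and -0.11 ± 0.04 after 6 h, which missed the threshold (adjusted p = 0.0584). It passed in 3 of the 16 alternatives, among them the fit with the feeder marker level as a covariate (adjusted p = 0.0244), each with a change of -0.11, and in none of the 6 fits without a library.

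The core subunits examined did not pass the test at either time. Exosc3 (ENSMUSG00000028322, chromosome 4 from 45316613 to 45342732, minus strand), an RNA-binding subunit of the cap of the barrel, measured 31.6 and 32.5 CPM before treatment, 34.1 and 33.8 after 3 h and 33.5 and 34.4 after 6 h. The treated libraries were all above the 0 h libraries, with a log2 fold change of 0.08 ± 0.06 at both times (edgeR adjusted p = 0.655 and 0.346). Exosc9 (ENSMUSG00000027714, chromosome 3 from 36552606 to 36565727, plus strand), a subunit of the ring that forms the barrel, measured 72.4 and 72.8 CPM before treatment, 68.7 and 68.8 after 3 h and 68.3 and 71.0 after 6 h. Its treated libraries were all below the 0 h libraries, with log2 fold changes of -0.08 ± 0.04 after 3 h (adjusted p = 0.565) and -0.06 ± 0.05 after 6 h (adjusted p = 0.381). Exons of Ccna2 on the opposite strand cover 10.8% of those of Exosc9, and the labels give a stranded library kit but not the strand setting of the counting.

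The SKI genes did not pass the test either. Skiv2l (ENSMUSG00000040356, chromosome 17 from 34839228 to 34850210, minus strand), the helicase gene, measured 78.4 and 75.3 CPM before treatment, 74.5 and 76.9 after 3 h and 75.3 and 75.3 after 6 h. The 3 h libraries overlapped those of 0 h, the 6 h libraries lay just below them, and the log2 fold changes were -0.02 ± 0.04 (edgeR adjusted p = 0.909) and -0.03 ± 0.04 (adjusted p = 0.688). Ttc37 (ENSMUSG00000033991, chromosome 13 from 76098734 to 76190316, plus strand), the gene of the scaffold that holds the helicase, measured 78.1 and 75.9 CPM before treatment, 73.8 and 76.2 after 3 h and 81.0 and 76.7 after 6 h. These libraries overlapped at both times against 0 h, with log2 fold changes of -0.04 ± 0.05 (adjusted p = 0.821) and 0.03 ± 0.05 (adjusted p = 0.646).

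Wdr61 (ENSMUSG00000061559, chromosome 9 from 54714735 to 54734519, minus strand) encodes a WD repeat subunit that SKI shares with the PAF1 transcription elongation complex. It measured 59.1 and 59.7 CPM before treatment, 60.9 and 61.4 after 3 h and 63.6 and 60.8 after 6 h. The treated libraries were all above the 0 h libraries, with log2 fold changes of 0.04 ± 0.05 (edgeR adjusted p = 0.807) and 0.06 ± 0.05 (adjusted p = 0.359). Exons of Dnaja4 on the opposite strand cover 33.9% of the exons of Wdr61.

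**Figure D3:**
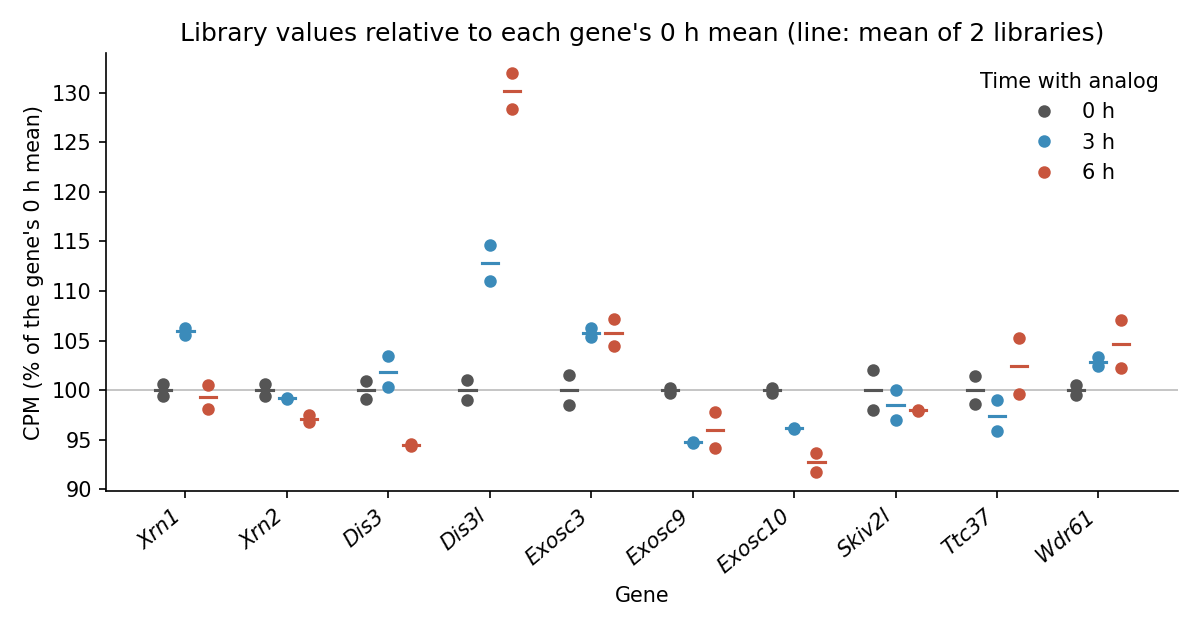
Each gene's CPM in every library as a percentage of its own 0 h mean. Points are libraries and short lines the means of 2. Both 6 h libraries of Dis3l stand near 130% of the 0 h mean, and the 6 h means of the other 9 genes lie between 92.7% and 105.8%.

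The counts of called genes were read against the whole table. At 3 h none was called, while 0.14% of all genes tested were. With edgeR 1 of the 10 had an unadjusted p under 0.05, as had 1679 of all 15748 genes. DESeq2 and limma voom called none of the 10, beside 12 and 30 of all genes. At 6 h 1 of the 10 was called, against 22.3% of all genes tested, of which 10% were called higher and 12.3% lower. The 10 genes had a median absolute log2 fold change of 0.05 after 3 h and 0.06 after 6 h, beside 0.08 and 0.14 for all genes. Their signed median was 0.01 after 3 h and -0.02 after 6 h, beside 0.00 for all genes at both times. Together they took 0.0926% to 0.0937% of the counts of a library. Groups that do not overlap are common with 2 libraries each and occurred in 42.3% of all genes after 3 h and 59.5% after 6 h, against 7 and 8 of the 10 here.

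**Figure D4:**
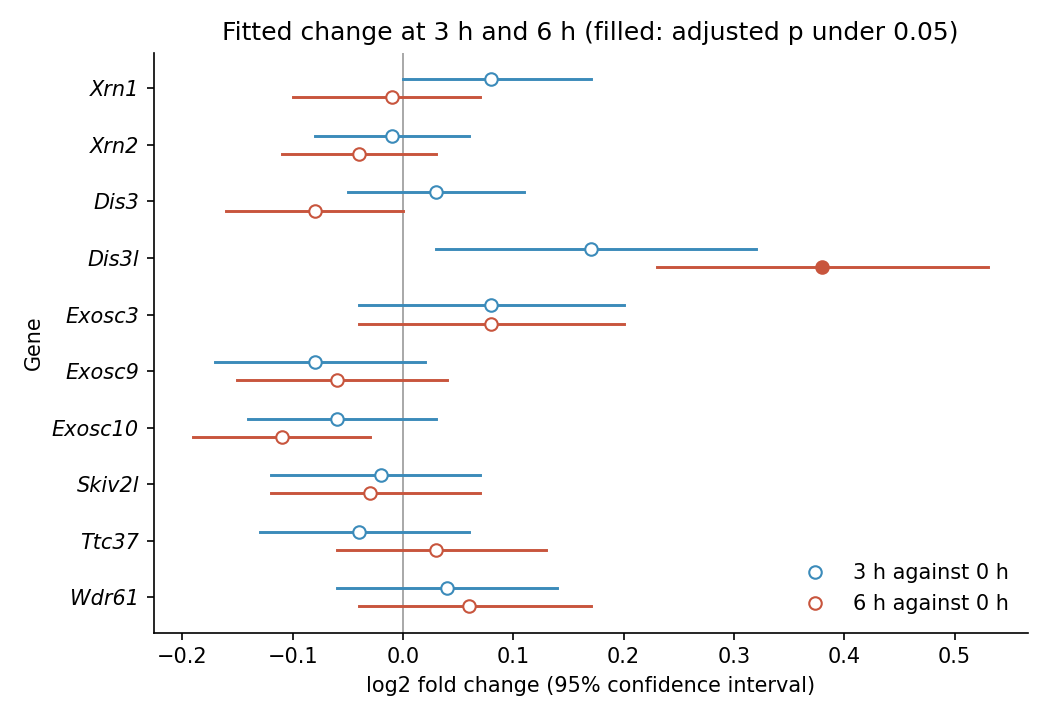
Fitted log2 fold changes of the 10 genes after 3 h and 6 h against 0 h with 95% confidence intervals from the fit of all 6 libraries. Filled points have an adjusted p under 0.05. Only Dis3l after 6 h, at 0.38, is filled, and its interval does not reach the other estimates.

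Between 3 h and 6 h Dis3l and Dis3 were both called, in opposite directions, which made 2 of 10 genes called against 21.7% of all genes tested (9.89% higher and 11.8% lower). Groups did not overlap in 6 of the 10, against 60.8% of all genes. Dis3l had a log2 fold change of 0.21 ± 0.07 (edgeR adjusted p = 0.0423) and Dis3 of -0.11 ± 0.04 (adjusted p = 0.0487). DESeq2 made neither call, nor did the fit with the feeder marker level as a covariate, in which Dis3l had a log2 fold change of 0.16 ± 0.11 (adjusted p = 0.414) and Dis3 of -0.09 ± 0.05 (adjusted p = 0.298). Over the 16 alternatives the log2 fold change ran from 0.16 to 0.24 for Dis3l and from -0.13 to -0.07 for Dis3, so the direction was the same in all of them. The feeder markers were higher after 6 h than after 3 h, with 8 of 24 called higher, none lower and a median log2 fold change of 0.12. Their part in the difference between 3 h and 6 h was not tested beyond that fit, in which the SE of Dis3l was larger and its fold change smaller than without the covariate. Without 1 library of 3 h or 6 h the adjusted p for Dis3l went to 0.188, 0.111, 0.157 and 0.0861 (3 h replicates 1 and 2, 6 h replicates 1 and 2), and that for Dis3 to 0.119, 0.331, 0.158 and 0.122. Dis3 also lost its call without replicate 1 of 0 h (adjusted p = 0.0526) and without replicate 2 of 0 h (0.0658). This comparison shares its 3 h and 6 h libraries with those against 0 h.

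The other genes of these pathways, 52 in 4 lists, were read in the same fit, and 51 were tested. Exosc6 is listed at 0 in all libraries, and all of its exon sequence is also annotated as exon of Aars on the same strand. At 3 h none of the 51 was called, beside 0.14% of all genes tested. With edgeR 3 of the 51 had an unadjusted p under 0.05, as had 1679 of all 15748 genes. DESeq2 and limma voom called none of the 51. At 6 h 2 rose and 8 fell, which is 19.6% of them beside the 22.3% for all genes. Their median log2 fold change was -0.03. DESeq2 called 4 of the 51, beside 1701 of all 15748 genes tested. Leaving out a 0 h library gave 6 calls in either case, and leaving out replicate 1 or 2 of 6 h gave 5 or 6. From 3 h to 6 h 1 rose and 9 fell, which is 19.6% beside 21.7% of all genes. Over all 15748 genes DESeq2 made 1449 calls from 3 h to 6 h. Of the 51, 4 were called by DESeq2 in that comparison, and 3 or 2 were called without replicate 1 or 2 of 3 h and 6 without replicate 2 of 6 h.

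None of the other 6 tested core subunits of the exosome was called after 6 h by edgeR, DESeq2 or limma voom. Of all 15748 genes tested these tools called 3515, 1701 and 3480. An unadjusted p under 0.05 with edgeR was held by 5450 of all genes and by 1 of the 6 subunits. This was Exosc1, named after its values were seen, with a log2 fold change of -0.14 ± 0.06 (edgeR adjusted p = 0.103). The most abundant of the 6 by CPM, the ring subunit gene Exosc8, measured 68.4 and 66.8 CPM at 0 h and 64.3 and 64.7 after 6 h. Both 6 h libraries were lower, with a log2 fold change of -0.07 ± 0.05 (edgeR adjusted p = 0.311).

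Of 18 nuclear exosome cofactors 1 rose and 4 fell after 6 h with edgeR, which is 27.8% of them beside 22.3% of all genes (10% higher and 12.3% lower). DESeq2 called none of the 18, beside 1701 of all 15748 genes tested. With it 4 of the 18 had an unadjusted p under 0.05, as had 3199 of all genes. Pabpn1, the nuclear polyA-binding protein gene of the exosome-targeting PAXT connection, fell from 40.5 and 43.3 CPM to 36.2 and 34.5 CPM (log2 fold change -0.25 ± 0.06, edgeR adjusted p = 0.00631). Zfc3h1, the zinc finger scaffold of the same connection, rose from 109 and 114 to 121 and 125 CPM (0.14 ± 0.04, adjusted p = 0.0215). The groups did not overlap in either gene. Nrde2, which binds the exosome helicase MTR4, fell from 46.3 and 43.7 to 39.9 and 39.2 CPM (-0.19 ± 0.06, adjusted p = 0.0278). These calls depended on single libraries. With replicate 2 of the 0 h group left out the adjusted p for Pabpn1 was 0.0643, and with replicate 2 of the 6 h group left out it was 0.0613. The same omission in the 6 h group gave 0.101 for Zfc3h1 and 0.132 for Nrde2, and omitting replicate 1 of the 0 h group gave 0.148 and 0.185. Nrde2 also had 0.0861 once replicate 1 of the 6 h group was omitted. The gene Gm20521 shares 21.4% of the exon length of Pabpn1 on the same strand.

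Of 10 SKI and ribosome rescue partners 1 rose and 1 fell after 6 h, which is 20% of them beside 22.3% of all genes. Gtpbp2, a GTPase gene needed in mouse neurons when ribosomes stall, rose from 30.9 and 30.3 to 36.2 and 38.9 CPM (log2 fold change 0.30 ± 0.06, edgeR adjusted p = 0.00188), a call made in all 16 alternatives. Rack1, a scaffold on the small ribosomal subunit, fell from 1366 and 1388 to 1260 and 1272 CPM (-0.12 ± 0.03, adjusted p = 0.00440), and its adjusted p was 0.0547 without replicate 2 of 0 h. The libraries of 0 h and 6 h were apart for both.

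Among 17 other exonucleases and XRN2 partners 3 fell and none rose after 6 h. They are 17.6% of the list, beside 22.3% of all genes called and 12.3% called lower. The list holds 3 genes whose proteins bind XRN2, of which Nkrf and Cdkn2aip fell. The other one, Cdkn2aipnl, which was named after its values were seen, measured 64.6 and 65.2 CPM before treatment and 66.0 and 64.2 after 6 h, groups that overlapped (log2 fold change 0.00 ± 0.05, edgeR adjusted p = 0.969). Nkrf went from 34.0 and 36.6 to 28.0 and 29.9 CPM (log2 fold change -0.29 ± 0.07, edgeR adjusted p = 0.00441) and Cdkn2aip from 22.9 and 25 to 19.1 and 19.6 CPM (-0.31 ± 0.08, adjusted p = 0.00721). Nkrf and Cdkn2aip were lower in both 6 h libraries than in any 0 h library. So was Xrn2 itself, with a smaller log2 fold change of -0.04 that did not pass the test. Isg20l2, a nucleolar exonuclease gene of ribosomal RNA processing, fell from 118 and 123 to 109 and 101 CPM (-0.21 ± 0.04, adjusted p = 0.00278), in all 16 alternatives. DESeq2 called Nkrf and Isg20l2 but not Cdkn2aip (adjusted p = 0.0693). Without replicate 1 of 6 h the adjusted p was 0.0523 for Nkrf and 0.0503 for Cdkn2aip, and for Cdkn2aip it was 0.0755 without replicate 2 of 0 h. A gene on the opposite strand covers 17% of the exons of Cdkn2aip and 10.3% of those of Isg20l2.

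**Figure D5:**
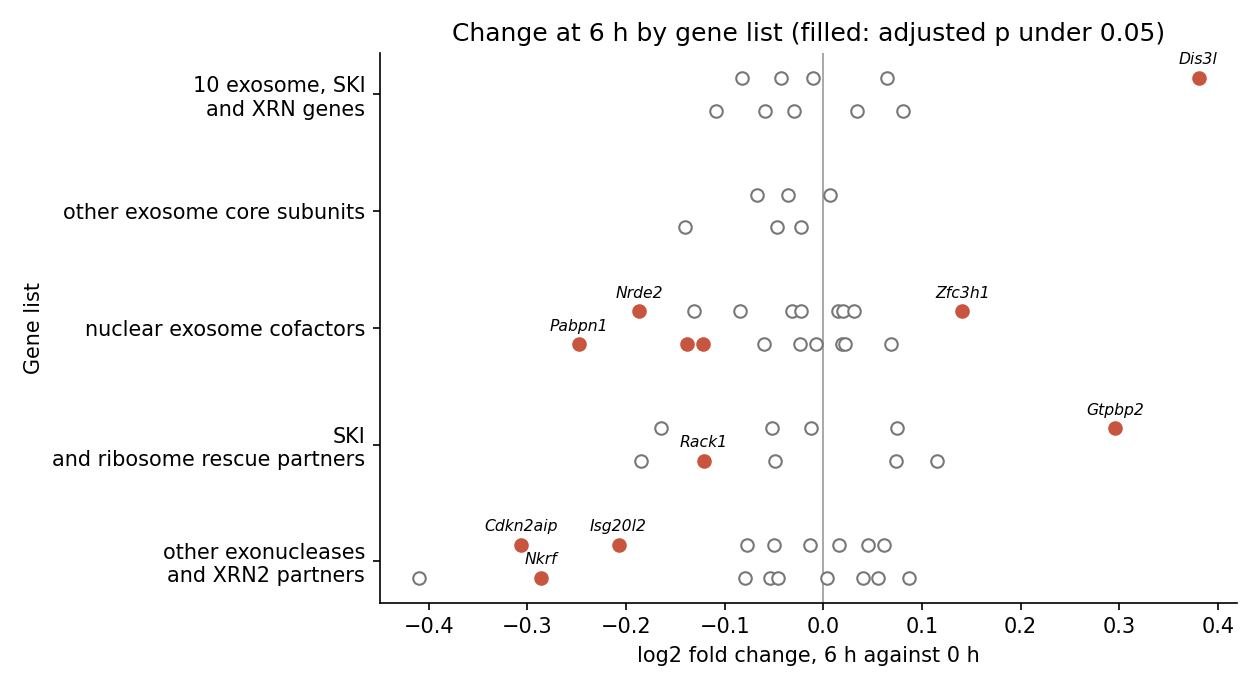
Log2 fold change after 6 h against 0 h of the 10 genes and of the 51 other tested genes in 4 lists. Each point is a gene, and filled points have an adjusted p under 0.05. Dis3l at 0.38 and Gtpbp2 at 0.30 are the highest filled points and Cdkn2aip at -0.31 the lowest.

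The pattern of Dis3l over the 6 libraries was most like that of Cul2, Nsmce3 and Rab3ip, with Pearson's r of 0.998, 0.997 and 0.996 for log2 CPM among 11660 genes compared. Their log2 fold changes after 6 h were 0.11 (edgeR adjusted p = 0.0415), 0.20 (adjusted p = 0.0450) and 0.17 (adjusted p = 0.0520), so Rab3ip did not pass the test. Of the genes compared 198, or 1.7%, had an r over 0.95, and since r takes no account of size they include changes larger and smaller than that of Dis3l, among the 10 most alike from 0.11 (Cul2) to 0.68 (Map9, named after its value was seen).

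Sequence features of the transcripts were compared last. ES cells make microRNAs of the miR-290 family, whose seed (bases 2 to 8) is shown in capitals below because DDX6 takes part in microRNA silencing and a 3' UTR carrying the complement could be addressed by them. The last line is the only match to that complement, AGCACTT, in the longest annotated 3' UTR of the 10 genes, in Wdr61, with the match in capitals. The microRNA sequences are from RefSeq (GRCm38.p6) and were not measured here.
mmu-miR-291a-3p: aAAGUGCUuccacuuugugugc
mmu-miR-294-3p: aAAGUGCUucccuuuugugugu
mmu-miR-295-3p: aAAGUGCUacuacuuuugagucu
Wdr61 site: agggaaagaaAGCACTTtggtgggaca

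The 27 nt printed for Wdr61 lie at chr9:54715462-54715488 (GRCm38, minus strand). The match within them starts at base 1636 of a 3' UTR of 2379 nt. That 3' UTR is longer than the whole main transcript of Wdr61 used for the levels, which has 1290 nt. It therefore belongs to another annotated transcript, whose use was not measured. Searched on the transcript strand, AGCACTT occurred in 17.7% of the 13524 tested genes with a 3' UTR of at least 50 nt, and 1 of the 10 genes held it. Wdr61 did not pass the test at either time, and genes with and without the match had medians of 0.01 and 0.00 after 6 h. The AU-rich heptamer TATTTAT occurred in 30.7% of the genes and in 2 of the 10, once each in Xrn1 and Ttc37. Dis3l had neither and a 3' UTR of 287 nt, shorter than in most genes, of which 12.8% had a shorter one. Xrn1 had the longest of the 10 at 4994 nt and Exosc10 the shortest at 87 nt, beside a median of 1202 nt over all genes. Each length is that of the longest annotated 3' UTR of the gene. The main transcript of Xrn1 has 5499 nt, of which 5169 nt are coding, so the 3' UTR of 4994 nt belongs to another annotated transcript. Which transcripts were used was not measured.

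Base composition also differed among the 10 genes. It was read from the transcript with the longest 3' UTR of each gene, which need not be the main transcript. The coding sequences of Xrn1 (42.9% GC), Exosc9 (44%), Xrn2 (44.7%), Dis3 (45.9%), Ttc37 (46%) and Wdr61 (47.9%) were poorer in GC than the median of 53.2% over all genes. Dis3l, at 51.3%, lay nearer to that median, Exosc10 (53.5%) and Exosc3 (54.5%) just above it, and Skiv2l was the richest at 58.7%. A match or its absence in these windows is a description of the letters and not of binding.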

How the data were processed

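Per the labels, polyA RNA was made into libraries with a stranded kit. The authors deposited unnormalized counts per Ensembl gene, 1 column for each library. According to the submitters' processing notes, the tools were fastp (0.22.0), HISAT2 (2.2.1) and featureCounts (2.0.3) on mm10. Neither the annotation nor the strand setting of the counting is stated. Names, positions, lengths and 3' UTRs were therefore taken from GENCODE M21, which is on GRCm38.

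With R 4.3.3 and edgeR 4.0.16, genes passing filterByExpr (minimum 10 counts) were scaled by TMM. All 6 libraries entered a quasi-likelihood fit with bias-adjusted deviances and a mean per group (3 residual and 13.7 prior degrees of freedom). A gene was called at a two-sided Benjamini-Hochberg adjusted p under 0.05 over all 15748 genes. SEs were taken from the log2 fold change and its F statistic, and 95% intervals from the t distribution with the total degrees of freedom. The 16 alternatives changed the scaling, filter, covariates, libraries or tool (DESeq2 1.42.0, limma 3.58.1 with voom), and the legacy deviances were added after seeing the data. A floor of 3 counts stood for 0.139 to 0.181 CPM, counting error only.

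The pathway genes named are, for each list, up to 3 called after 6 h with the smallest adjusted p and any called after 3 h. Where none was called, the most abundant by CPM was named. Likeness was measured to the gene of the 10 with the smallest adjusted p after 6 h. The 10 genes and all lists were chosen with earlier results of these data known. No label says that a group's libraries are separate cultures, so the p-values measure their spread alone, and that may be technical.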

Additional observations from a re-analysis of the deposited data

How the results depend on the processing

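The 10 genes and 3 comparisons give 30 tests, of which 3 were called and 1, Dis3l after 6 h, was called in all 16 alternatives. Of the 27 others 26 were called in no alternative, and 9 had another sign in at least 1. The count of 1 called gene after 6 h became 2 with the feeder covariate, the replicate block and the legacy deviances, Exosc10 being the gene added. From 3 h to 6 h the count of 2 became 1 with unscaled library sizes, 0 without a filter, 0 with DESeq2, 0 with the feeder covariate and 0 to 1 in the fits without 1 library. For the 51 other pathway genes the count of 10 after 6 h became 6 without a filter, 4 with DESeq2 and 5 to 8 without 1 library. Their count of 10 from 3 h to 6 h became 4, 4 and 2 to 11 in the same settings and 5 with the feeder covariate.

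Over all genes the 22 calls after 3 h became 0 without a filter (1839 had an unadjusted p under 0.05), 12 with DESeq2, 74 with only the 4 libraries compared and 4 to 249 without 1 library. The 3515 calls after 6 h became 2029 without a filter and 1701 with DESeq2. The 3414 calls from 3 h to 6 h became 1725, 1449 and, with the feeder covariate, 1649, and 1514 to 3706 without 1 library. Whether the replicate numbers pair the libraries is not stated. Over all genes tested the deviations of same-numbered libraries correlated at 0.0372, 0.0401 and -0.0212. That check weighs every gene alike, so it cannot exclude a pairing that moves a part of the genes. The summed feeder markers were higher in replicate 1 than in replicate 2 at all 3 times. Their mean log2 CPM was higher in replicate 1 at 0 h and 6 h but not at 3 h (8.45 and 8.46). With the replicate block 242, 4227 and 4186 genes were called in the 3 comparisons. The causes of these differences were not tested. At this depth the 95% intervals of the 10 genes reach from 0.07 to 0.15 to either side on the log2 scale.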
